A study of Mus musculus with 18 samples.

Results

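The 35 genes described here encode proteins of late spermatids and sperm. They were grouped by role: packing proteins of sperm chromatin, the tail and its mitochondrial sheath, and sperm forms of glycolytic enzymes. The other groups were acrosome and egg-binding proteins, testis-specific kinases, the sperm calcium channel and 4 other late germ cell products. The tail group also holds spermatid proteins that are not parts of the tail, such as Meig1 of the manchette and Spem1. All 35 genes were chosen by name, as known late germ cell genes, at a time when earlier results of these data were known. Of these, 35 of 35 were found among the 24346 genes of the expression table. Expression was measured as FPKM (fragments per kilobase of transcript, scaled to the mapped reads of each library) in 18 RNA-seq libraries of the initial segment and caput of the mouse epididymis (IS-caput), the part of the duct that lies nearest to the testis. A gene was tested where it reached 0.1 FPKM in at least 3 libraries. This left 34 of the 35, and only Catsper1, a channel subunit, was not tested.

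The libraries formed 6 groups of 3. The 4 operated groups were wild-type B6D1F1 males, operated on at 8 weeks of age and examined 4 weeks later, at 12 weeks: sham operation, bilateral orchidectomy (OD, removal of both testes), and unilateral OD, sampled once on the side of the removed testis (ipsilateral) and once on the other (contralateral). Both sides came from the same mice, and the contralateral testis stayed in place. The other groups were untreated males at 14 weeks, wild-type (WT) and Nell2-/-, taken from earlier work. NELL2 is a protein that germ cells of the testis secrete into the duct, where it reaches the epididymis (lumicrine signaling). Both groups of the Nell2 comparison kept their testes. Operation, age and series of libraries differ together between these untreated groups and the operated ones, and cannot be told apart.

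In spermatids, histones are replaced first by transition proteins and then by protamines, and transcription stops. Messenger RNAs made before that point are stored for translation, and some of them remain in sperm. The epididymis makes no germ cells of its own. Sperm and shed germ cells enter it from the testis with the luminal fluid. CREM, a relative of CREB, is the well-known activator of many spermatid genes. It binds the cAMP response element, whose full form is TGACGTCA.

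The stretch of 100 bases before the RefSeq start site (GRCm38.p6) is shown for 7 members picked because they hold letters of this element and for 4 members that fell and hold none, so the share of sequences with a match shown here is no finding. RefSeq promoter windows were found for 31 of the 35 members. The letters TGANNTCA, which keep both ends of the response element and read the same on either strand, were present in these 100 bases in 13 of 31 members (41.9%) and in 7.35% of all 27025 genes with a window. In the whole 250 upstream bases they were present in 15 of 31 members and 13.5% of all genes. The full TGACGTCA, which the first pattern also counts, was found in 1 member, Izumo1, and in 1.77% of all genes within 250 bases. In the first 7 sequences, capitals mark TGANNTCA. In Prm2 and Tnp2, which hold no TGANNTCA within 100 bases, capitals mark the first TATA, found in 8 of 31 members and 17.6% of all genes within the same distance. These are matches of letters only.
Prm1 (chr16:10796824-10796923, minus strand): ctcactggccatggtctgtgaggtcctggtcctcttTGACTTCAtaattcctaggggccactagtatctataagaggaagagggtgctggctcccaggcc
Tnp1 (chr1:73015900-73015999, minus strand): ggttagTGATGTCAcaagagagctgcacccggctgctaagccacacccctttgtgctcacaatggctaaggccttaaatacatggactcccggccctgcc
Akap4 (chrX:7067415-7067514, plus strand): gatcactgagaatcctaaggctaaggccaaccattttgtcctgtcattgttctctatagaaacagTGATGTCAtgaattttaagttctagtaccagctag
Gapdhs, 1 of its start sites (chr7:30743682-30743781, minus strand): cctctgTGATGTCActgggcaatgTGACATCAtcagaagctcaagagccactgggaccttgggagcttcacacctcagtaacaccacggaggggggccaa
Pgk2 (chr17:40208610-40208709, minus strand): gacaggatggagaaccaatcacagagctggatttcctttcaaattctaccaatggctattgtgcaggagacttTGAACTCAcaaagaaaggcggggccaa
Tssk2 (chr16:17898537-17898636, plus strand): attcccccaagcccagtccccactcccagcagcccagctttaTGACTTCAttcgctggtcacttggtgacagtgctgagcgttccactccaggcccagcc
Tssk1 (chr16:17894103-17894202, plus strand): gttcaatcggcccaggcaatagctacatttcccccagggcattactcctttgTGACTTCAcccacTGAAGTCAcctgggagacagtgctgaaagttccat
Prm2 (chr16:10792106-10792205, minus strand): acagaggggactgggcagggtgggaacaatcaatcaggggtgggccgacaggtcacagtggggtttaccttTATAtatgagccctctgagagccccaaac
Tnp2 (chr16:10788656-10788755, minus strand): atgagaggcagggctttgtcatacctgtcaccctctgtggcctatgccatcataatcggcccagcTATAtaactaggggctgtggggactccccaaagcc
Smcp (chr3:92589074-92589173, minus strand): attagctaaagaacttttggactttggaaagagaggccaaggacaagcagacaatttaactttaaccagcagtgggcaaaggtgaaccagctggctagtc
Spem1 (chr11:69822166-69822265, minus strand): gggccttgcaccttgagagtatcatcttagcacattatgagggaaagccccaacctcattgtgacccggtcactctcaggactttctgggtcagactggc
Prm1, Prm2 and Tnp2 lie within 8.89 kb of each other on chromosome 16, from 10787935 to 10796823. Tssk1 and Tssk2 are neighbours elsewhere on the same chromosome.

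Several facts of the whole series bear on the values. The initial segment ribonuclease gene Rnase10 stood at 3204 to 4717 FPKM in the 9 sham, contralateral and WT libraries and at 0.425 to 4.04 FPKM in the other 9, so that this defining marker of the labelled tissue was nearly absent from the bilateral OD, ipsilateral and Nell2-/- groups. Nell2 itself was low everywhere, at 0.1295, 0.0302 and 0.06103 FPKM in WT and 0, 0.0274 and 0 FPKM in Nell2-/- libraries, too low to check the label. Sham replicate 3 stood apart in the caput lipocalin Lcn5 (1507, 1612 and 5708 FPKM), and Nell2-/- replicate 2 in the ciliated cell factor Foxj1 (4.02, 11.3 and 2.26 FPKM). The value of 1 read on a transcript of 1 kb, read from the spacing of low values, was about 0.0604 to 0.0783 FPKM in bilateral OD libraries and 0.0735 to 0.101 FPKM in the other groups, so zeros in bilateral OD libraries did not go with shallower reading. Because the tissue was measured in bulk, fewer cells of a type and less RNA per cell cannot be told apart in any value below.

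The 35 members together made up 112, 139 and 128 FPKM in the sham libraries and 25.1, 27.1 and 25.4 FPKM in the bilateral OD libraries. The contralateral side held 134, 129.9 and 102 FPKM and the ipsilateral side 25.9, 23.5 and 31.9 FPKM. Loss of the testis on the same side thus went with a lower sum in every library, and the groups did not overlap. The WT libraries held 349, 233 and 232 FPKM and the Nell2-/- libraries 379.7, 344 and 329.8 FPKM, with overlapping ranges. The largest part of what was left without a testis was 1 gene, Odf2, at 10.7 to 13.6 FPKM. Of the 35 members, 16 to 18 were listed at 0 in each bilateral OD library, 9 or 10 in each ipsilateral library and 0 to 5 in each of the others. No test was made on the sums.

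**Figure D1:**
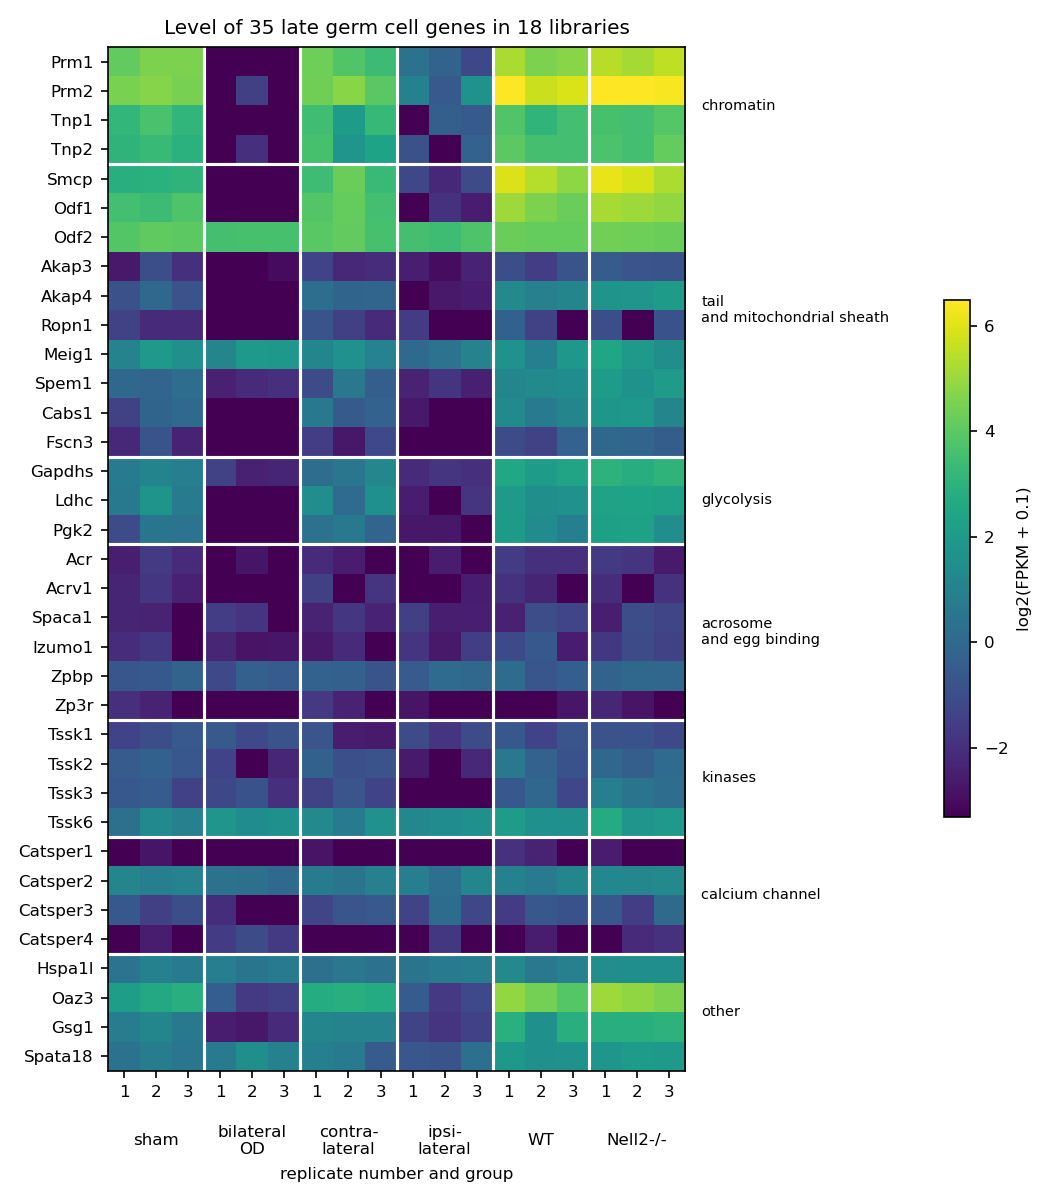
Level of each of the 35 members (rows, grouped by role) in each of the 18 libraries (columns, by group and replicate number), as log2(FPKM + 0.1), where the darkest colour is a value listed at 0. The chromatin, glycolysis and most tail rows are dark in the bilateral OD and ipsilateral libraries. Odf2, Zpbp, Tssk6 and Hspa1l have no value listed at 0 in any library, although Odf2, Tssk6 and Hspa1l passed the test in some comparisons.

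Bilateral OD was compared with sham to see what the duct loses when both testes are gone. Of the 34 tested members, 21 fell and 2 rose (limma on log2(FPKM + 0.1), adjusted p under 0.05, over all 17302 genes tested). Among all genes 31.4% fell and 30.4% rose, so a call alone was common here. The median change of the members was log2 −1.49, beside 0.02 for all genes. On the ipsilateral against the contralateral side, where the other testis was in place, 18 members fell and 0 rose, beside 18.6% and 16% of all genes. The median was log2 −1.40, beside 0.02. At unadjusted p under 0.05, 0 members were higher as well. In Nell2-/- against WT, where the testes were in place, 0 members fell and 3 rose, beside 18.6% and 17.8% of all genes. The median was log2 0.39, beside 0.02 for all genes, and 0 members were lower at unadjusted p under 0.05.

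In all, 17 of the 34 tested members fell in both OD comparisons, beside 14.2% of all genes tested. The 17 are 81.0% of the members lower after bilateral OD and 94.4% of those lower on the ipsilateral side. Among all genes, 2451 fell in both, out of 5429 lower after bilateral OD and 3212 lower on the ipsilateral side. These comparisons share no library. The 17 were the 4 chromatin genes, 7 of the tail group (Smcp, Odf1, Odf2, Akap4, Spem1, Cabs1 and Fscn3), the 3 glycolytic genes, Tssk2, Oaz3 and Gsg1. Acr, Akap3, Catsper2 and Catsper3 fell after bilateral OD without passing the test on the ipsilateral side, and Tssk3 fell on the ipsilateral side without passing the test after bilateral OD. A total of 10 members passed in neither. In all 21 members that fell after bilateral OD the 3 values lay below the 3 sham values. The same held for 17 of the 18 on the ipsilateral side, all but Odf2. Such separation largely follows from the call itself. Of the members not called, 2 of 11 were also lower with ranges apart after bilateral OD (Acrv1 and Ropn1). On the ipsilateral side it was 1 of 16 (Akap3). Among all genes, called or not, 31.9% and 23.8% were lower with ranges apart.

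**Figure D2:**
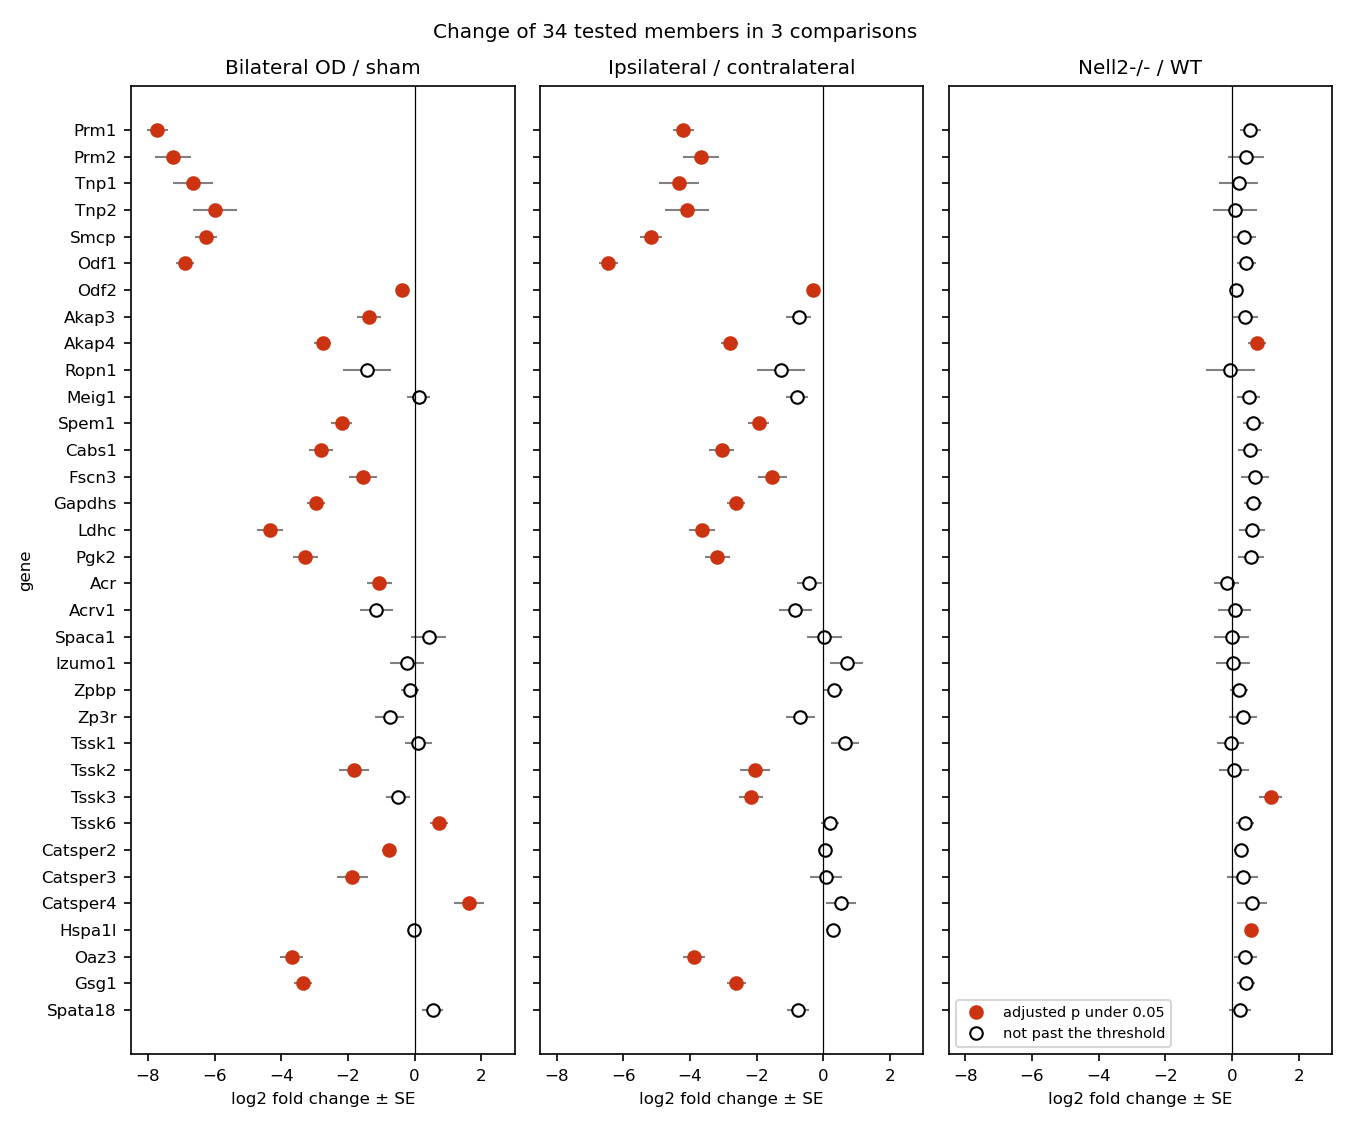
Log2 fold change (horizontal axis, bars show the standard error of the fit) of the 34 tested members in bilateral OD against sham, ipsilateral against contralateral, and Nell2-/- against WT, with 3 libraries a group. Filled red points have adjusted p under 0.05. They lie to the left of 0 for 21 and 18 members in the OD panels. They lie to the right for 2 members in the bilateral OD panel, Catsper4 and Tssk6, and for 3 members in the Nell2-/- panel. Changes of genes listed at 0 depend on the 0.1 FPKM added before logs.

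The chromatin genes showed the largest falls as a group. Prm1, protamine 1, stood at 17.3, 22.9 and 23.3 FPKM in sham libraries and was listed at 0 in all 3 bilateral OD libraries. On the contralateral side it stood at 19.6, 14.02 and 10.5 FPKM and on the ipsilateral side at 1.16, 0.7797 and 0.332 FPKM, so the sides lay far apart and a little was left on the ipsilateral side (change of log2 −4.20, SE 0.31, adjusted p = 4.14e-08). WT libraries held 37.2, 23.1 and 26.5 FPKM and Nell2-/- libraries 42.3, 35.7 and 46.9 FPKM, which overlapped (change of log2 0.55, SE 0.31, adjusted p = 0.197). Prm2, protamine 2, was the most abundant member on average. It stood at 22.4, 25.9 and 22.2 FPKM in sham, 0, 0.263 and 0 FPKM after bilateral OD, 20.1, 26.3 and 15.6 FPKM contralaterally and 1.87, 0.565 and 3.05 FPKM ipsilaterally. All bilateral OD values lay below all ipsilateral ones, which in turn lay below the contralateral ones (change of log2 −3.66, SE 0.54, adjusted p = 0.000132). In WT and Nell2-/- it reached 87.3, 51.4 and 61.1 FPKM and 88.97, 88.5 and 83.5 FPKM.

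Tnp1 and Tnp2, the transition proteins that precede the protamines, also fell in both OD comparisons. Tnp1 stood at 8.84, 12.6 and 8.74 FPKM in sham and was listed at 0 in all 3 bilateral OD libraries. It read 11.1, 4.13 and 9.29 FPKM on the contralateral and 0, 0.689 and 0.587 FPKM on the ipsilateral side (change of log2 −4.33, SE 0.59, adjusted p = 4.9e-05). Its WT values were 14.1, 8.4 and 11.7 FPKM and its Nell2-/- values 12.2, 11.6 and 14.9 FPKM. These overlapped with each other and with the sham values. Tnp2 stood at 8.28, 9.85 and 7.65 FPKM in sham, 0, 0.155 and 0 FPKM after bilateral OD, 12.3, 3.38 and 5.06 FPKM contralaterally and 0.4403, 0 and 0.756 FPKM ipsilaterally (change of log2 −4.08, SE 0.66, adjusted p = 0.000237). It kept 16.1, 11.8 and 11.7 FPKM in WT and 12.9, 11.7 and 17.7 FPKM in Nell2-/-. The 4 chromatin genes made up 48.4% to 51.1% of the members' summed FPKM in sham libraries and 0% to 1.55% after bilateral OD. Their share was 36.8% to 47.2% contralaterally and 8.66% to 14.8% ipsilaterally. In WT it was 40.7% to 47.8% and in Nell2-/- 41.2% to 49.4%.

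The size of the fall differed between the 2 kinds of OD for some of these genes. The change after bilateral OD was larger than that after unilateral OD for Prm1 (difference of log2 changes −3.52 ± 0.44, limma adjusted p = 1.23e-05), Prm2 (−3.59 ± 0.76, adjusted p = 0.0021) and Tnp1 (−2.31 ± 0.84, adjusted p = 0.0427). In this contrast 5 members were lower, beside 19.3% of all genes, and 2 were higher, beside 18.1%. The call for Tnp1 was lost on leaving out any of 10 of the 12 libraries involved, all but contralateral replicate 1 and ipsilateral replicate 1, and with 1 FPKM added before logs (adjusted p = 0.113). Without sham replicate 3, which stood apart, 2 members were lower, Prm1 and Prm2, and 1 higher, Tssk3.

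**Figure D3:**
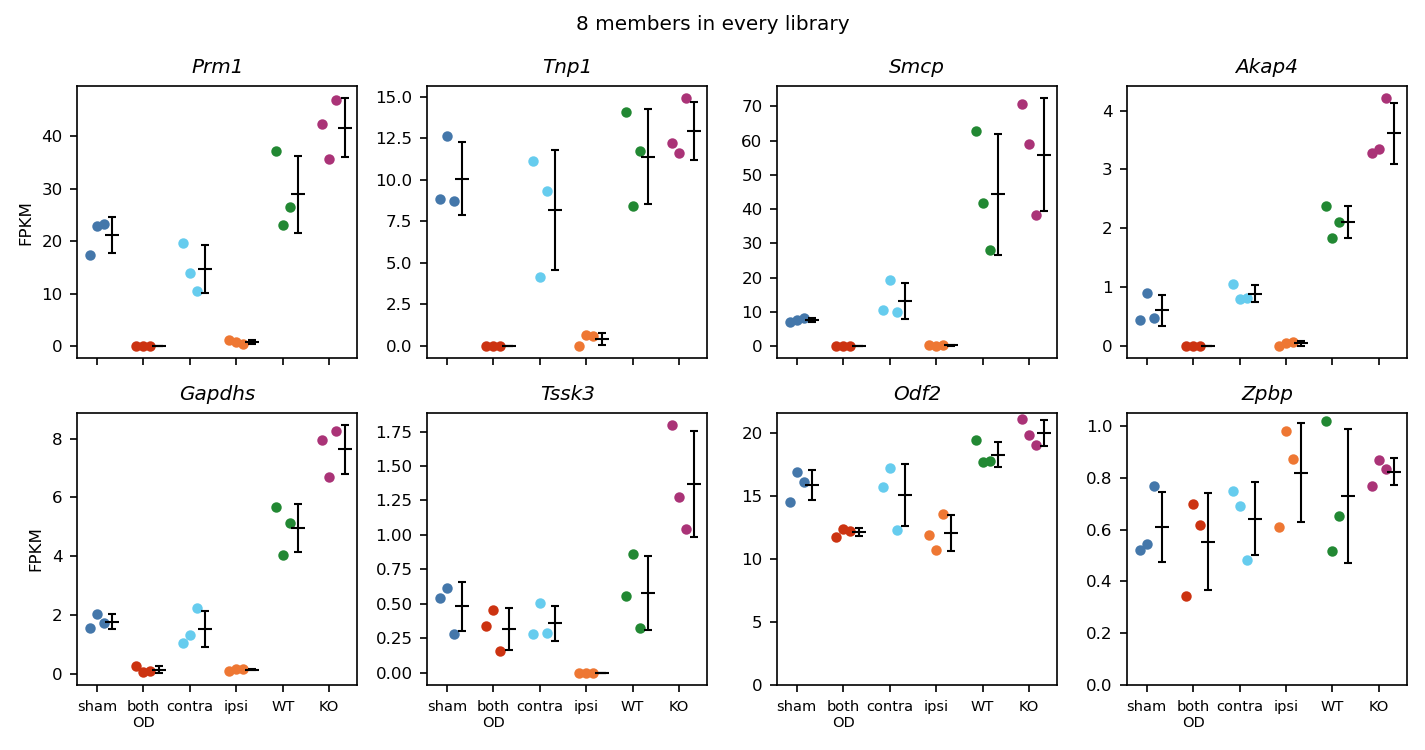
FPKM of 8 members in each library of the 6 groups (coloured points, 3 a group; both OD is bilateral OD, contra and ipsi are the sides of unilateral OD, KO is Nell2-/-), with mean and SD in black and a linear axis of its own for each gene. Prm1, Tnp1, Smcp, Akap4 and Gapdhs are at or near 0 after bilateral OD and on the ipsilateral side, Tssk3 is at 0 on the ipsilateral side only, and Odf2 (10.7 to 21.1) and Zpbp (0.343 to 1.02) are above 0 in every library.

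Of the 10 genes of the tail and sheath group, 8 fell after bilateral OD and 7 on the ipsilateral side. Smcp, which encodes a cysteine-rich protein of the sperm mitochondrial capsule, was listed at 0 in all bilateral OD libraries against 6.94, 7.61 and 8.21 FPKM in sham. On the ipsilateral side 0.335, 0.112 and 0.383 FPKM were left of 10.6, 19.3 and 9.79 FPKM contralaterally, with wide separation (change of log2 −5.17, SE 0.34, adjusted p = 1.06e-08). It varied widely among intact males, at 62.96, 41.9 and 28.1 FPKM in WT and 70.6, 59.01 and 38.2 FPKM in Nell2-/- libraries, and these overlapped (change of log2 0.37, SE 0.34, adjusted p = 0.45). Odf1, a protein of the outer dense fibres along the tail, stood at 11.5, 10.5 and 13.5 FPKM in sham and was listed at 0 in all 3 bilateral OD libraries. It was also listed at 0 in 1 ipsilateral library, the 3 of which read 0, 0.171 and 0.0729 FPKM against 14.4, 17.98 and 11.7 FPKM contralaterally. This was the largest ipsilateral fall among the members (change of log2 −6.44, SE 0.27, adjusted p = 1.25e-11). WT held 33.1, 23.1 and 18.7 FPKM and Nell2-/- 36.2, 33 and 29.8 FPKM.

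Akap4, the main anchoring protein of the fibrous sheath, is X-linked and fell to 0 in the listing of every bilateral OD library, from 0.441, 0.904 and 0.472 FPKM in sham. It stood at 1.06, 0.793 and 0.816 FPKM on the contralateral and 0, 0.0583 and 0.0744 FPKM on the ipsilateral side (change of log2 −2.81, SE 0.26, adjusted p = 2.06e-07). It rose from 2.38, 1.83 and 2.11 FPKM in WT to 3.28, 3.34 and 4.21 FPKM in Nell2-/- with ranges apart (change of log2 0.75, SE 0.26, adjusted p = 0.0328). Its partner Akap3 was lower expressed, at 0.06099, 0.406 and 0.159 FPKM in sham and 0, 0 and 0.02204 FPKM after bilateral OD (change of log2 −1.37, SE 0.37, adjusted p = 0.00408). On the ipsilateral side it did not pass the test (change of log2 −0.74, SE 0.37, adjusted p = 0.141). Ropn1, which binds these anchoring proteins, was listed at 0 in all bilateral OD libraries, from 0.2803, 0.133 and 0.122 FPKM in sham, but at such low values the test was not passed (adjusted p = 0.0998).

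Spem1, needed in mice to shed the cytoplasm from late spermatids, fell from 0.868, 0.827 and 1.04 FPKM to 0.0844, 0.1303 and 0.157 FPKM after bilateral OD (change of log2 −2.18, SE 0.32, adjusted p = 1.17e-05) and from 0.376, 1.42 and 0.676 FPKM to 0.0924, 0.186 and 0.0794 FPKM on the ipsilateral side (change of log2 −1.94, SE 0.32, adjusted p = 0.000118). It kept a small value in every one of these 6 libraries. Cabs1, a calcium-binding protein of spermatids, was listed at 0 in 3 bilateral OD and 2 ipsilateral libraries, with 0.279 to 1.45 FPKM in the sham and contralateral ones. Fscn3, a testis form of the actin-bundling protein fascin, was listed at 0 in all 6 OD libraries and stood at 0.113, 0.486 and 0.0986 FPKM in sham and 0.245, 0.05298 and 0.353 FPKM contralaterally. Its calls rested on these low values. The ipsilateral one was lost without contralateral replicate 3 (adjusted p = 0.0614), and both OD calls were lost with 1 FPKM added before logs.

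Odf2 behaved differently from Odf1, although both encode outer dense fibre proteins. Odf2 also serves centrosomes and cilia of other cells. It stood at 14.6, 16.9 and 16.1 FPKM in sham and 11.8, 12.4 and 12.2 FPKM after bilateral OD, which is 76.3% of the sham mean (change of log2 −0.38, SE 0.10, adjusted p = 0.00399). It read 15.7, 17.2 and 12.3 FPKM contralaterally and 11.9, 10.7 and 13.6 FPKM ipsilaterally, with overlapping values (change of log2 −0.31, SE 0.10, adjusted p = 0.0266), and this call was lost on leaving out any of 4 libraries, contralateral replicates 1 and 2 and ipsilateral replicates 1 and 2 (adjusted p from 0.0661 to 0.151). Meig1, a protein of the spermatid manchette, stood at 1.96, 3.74 and 2.95 FPKM in sham and 2.08, 3.75 and 3.61 FPKM after bilateral OD, which overlapped (change of log2 0.12, SE 0.34, adjusted p = 0.77). The ipsilateral values were 0.912, 1.23 and 1.96 FPKM against 2.16, 3.005 and 1.91 FPKM and did not pass the test (change of log2 −0.78, SE 0.34, adjusted p = 0.0868).

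The 3 sperm glycolytic enzymes fell in both comparisons. Gapdhs encodes the sperm glyceraldehyde-3-phosphate dehydrogenase of the tail. It stood at 1.55, 2.05 and 1.72 FPKM in sham and 0.275, 0.0848 and 0.104 FPKM after bilateral OD (change of log2 −2.95, SE 0.27, adjusted p = 4.07e-08), and at 1.05, 1.34 and 2.23 FPKM and 0.122, 0.184 and 0.157 FPKM on the 2 sides (change of log2 −2.63, SE 0.27, adjusted p = 6.35e-07). In Nell2-/- its values of 7.97, 6.696 and 8.24 FPKM all lay above the WT values of 5.66, 4.06 and 5.13 FPKM, without passing the test (adjusted p = 0.0829). Ldhc, the germ cell lactate dehydrogenase, was listed at 0 in every bilateral OD library and stood at 1.46, 3.25 and 1.48 FPKM in sham. The ipsilateral libraries read 0.0692, 0 and 0.178 FPKM against 2.67, 0.987 and 2.89 FPKM contralaterally (change of log2 −3.63, SE 0.39, adjusted p = 1.06e-06). Pgk2, the autosomal phosphoglycerate kinase that takes over when the X-linked Pgk1 is silent in meiosis, was also listed at 0 after bilateral OD, from 0.388, 1.29 and 1.24 FPKM. It fell from 1.18, 1.45 and 0.807 FPKM to 0.0551, 0.0556 and 0 FPKM on the ipsilateral side (change of log2 −3.18, SE 0.38, adjusted p = 4.21e-06).

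Of the 6 acrosome and egg-binding genes, 1 fell after bilateral OD and 0 on the ipsilateral side (0 also at unadjusted p under 0.05). Acr, Acrv1 and Zp3r lay near the value of 1 read, where a fall could hardly be detected, and whether this group differs from the others was not tested. Acr, the acrosomal protease acrosin, was the one that fell, from 0.0765, 0.219 and 0.133 FPKM in sham to 0, 0.0459 and 0 FPKM (change of log2 −1.06, SE 0.38, adjusted p = 0.0222). This call was lost on leaving out sham replicate 2, bilateral OD replicate 1 or bilateral OD replicate 3 (adjusted p from 0.0666 to 0.0968). Acrv1, an acrosomal vesicle protein, was listed at 0 in all bilateral OD libraries and stood at 0.101, 0.192 and 0.0877 FPKM in sham (adjusted p = 0.053). Zp3r, a mouse acrosomal matrix protein, was likewise listed at 0 in all 3 bilateral OD libraries and stood at 0.147, 0.0935 and 0 FPKM in sham (adjusted p = 0.14). Zpbp, a zona pellucida-binding protein, had the highest mean of the 6 and passed neither test. It read 0.5199, 0.543 and 0.767 FPKM in sham, 0.343, 0.7 and 0.618 FPKM after bilateral OD, 0.7503, 0.693 and 0.484 FPKM contralaterally and 0.6099, 0.979 and 0.872 FPKM ipsilaterally, with overlap in both comparisons (change of log2 −0.15, SE 0.27, adjusted p = 0.66 and change of log2 0.31, SE 0.27, adjusted p = 0.425). Izumo1, the sperm partner of the egg receptor Juno, ranged from 0 to 0.556 FPKM and Spaca1, an acrosomal membrane protein, from 0 to 0.417 FPKM. Both overlapped between groups in the OD comparisons.

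The testis-specific serine kinases did not move together. Tssk2 fell from 0.607, 0.722 and 0.528 FPKM to 0.295, 0 and 0.1097 FPKM after bilateral OD (change of log2 −1.82, SE 0.44, adjusted p = 0.00161) and from 0.722, 0.426 and 0.473 FPKM to 0.0646, 0 and 0.111 FPKM on the ipsilateral side (change of log2 −2.05, SE 0.44, adjusted p = 0.00136). Its neighbour Tssk1, whose upstream stretch printed above holds the same TGACTTCA, stood at 0.288, 0.412 and 0.564 FPKM in sham and 0.561, 0.346 and 0.469 FPKM after bilateral OD (change of log2 0.11, SE 0.41, adjusted p = 0.826). It also overlapped between sides, at 0.499, 0.0674 and 0.0641 FPKM and 0.368, 0.186 and 0.369 FPKM. These kinases are similar in sequence, so reads shared between them are uncertain, and this was not tested. Tssk3 differed between the 2 kinds of OD. It was listed at 0 in all 3 ipsilateral libraries against 0.281, 0.506 and 0.289 FPKM contralaterally (change of log2 −2.16, SE 0.35, adjusted p = 0.000124), yet kept 0.337, 0.454 and 0.156 FPKM after bilateral OD against 0.541, 0.618 and 0.282 FPKM in sham (change of log2 −0.50, SE 0.35, adjusted p = 0.232). The difference between these changes was log2 1.66 ± 0.50 (adjusted p = 0.0143) and was lost with 1 FPKM added before logs (adjusted p = 0.296). Tssk3 rose in Nell2-/-, from 0.554, 0.862 and 0.326 FPKM to 1.798, 1.27 and 1.05 FPKM (change of log2 1.16, SE 0.35, adjusted p = 0.0157). Tssk6, needed for sperm and egg to fuse in mice, rose after bilateral OD from 1.14, 2.41 and 1.85 FPKM to 3.37, 2.598 and 2.95 FPKM (change of log2 0.74, SE 0.27, adjusted p = 0.0245), a call lost without sham replicate 1, bilateral OD replicate 1 or bilateral OD replicate 3 (adjusted p from 0.0531 to 0.148).

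The 4 pore subunits of CatSper, the calcium channel of the sperm tail, differed among themselves. Catsper1 was listed at 0 in 13 of the 18 libraries and was highest in WT, at 0.165, 0.0965 and 0 FPKM. Catsper2 fell after bilateral OD to 56.7% of the sham mean, from 2.11, 1.72 and 1.92 FPKM to 1.198, 1.14 and 0.923 FPKM (change of log2 −0.77, SE 0.20, adjusted p = 0.00327), and overlapped between the sides at 1.52, 1.32 and 1.84 FPKM and 1.72, 1.095 and 2.16 FPKM. Catsper3 fell after bilateral OD from 0.542, 0.258 and 0.409 FPKM to 0.1404, 0 and 0 FPKM (change of log2 −1.87, SE 0.47, adjusted p = 0.00239) and likewise overlapped between the sides, at 0.312, 0.506 and 0.562 FPKM and 0.307, 1.01 and 0.3301 FPKM. For both genes the bilateral change was lower than the unilateral one (Catsper2 log2 −0.82 ± 0.29, adjusted p = 0.033, Catsper3 log2 −1.94 ± 0.67, adjusted p = 0.0295), but these calls did not survive every omission. That of Catsper2 was lost on leaving out any of 7 libraries (sham 1 and 3, bilateral OD 3, contralateral 1 and 2, ipsilateral 1 and 3, by replicate number), with adjusted p from 0.0539 to 0.0937. That of Catsper3 was lost on leaving out any of 6 (sham 1 and 3, bilateral OD 2 and 3, contralateral 1, ipsilateral 2), with adjusted p from 0.0517 to 0.089. Catsper4 rose after bilateral OD, from 0, 0.0656 and 0 FPKM to 0.2295, 0.372 and 0.213 FPKM (change of log2 1.63, SE 0.45, adjusted p = 0.00474).

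Of the other late germ cell products, Oaz3 and Gsg1 followed the protamines, and Hspa1l and Spata18 did not. Oaz3, the antizyme that restrains polyamine synthesis in spermatids, stood at 4.34, 5.85 and 6.92 FPKM in sham and 0.656, 0.217 and 0.261 FPKM after bilateral OD (change of log2 −3.69, SE 0.34, adjusted p = 1.29e-07). The sides read 6.67, 7.096 and 6.43 FPKM and 0.615, 0.207 and 0.352 FPKM (change of log2 −3.88, SE 0.34, adjusted p = 2.66e-07), and WT and Nell2-/- read 29.8, 21.6 and 14.8 FPKM and 32.8, 28.6 and 23.6 FPKM. Gsg1, a germ cell protein of the endoplasmic reticulum, fell from 1.68, 2.18 and 1.46 FPKM to 0.0686, 0.0529 and 0.128 FPKM (change of log2 −3.36, SE 0.27, adjusted p = 9.37e-09) and from 2.14, 1.98 and 1.97 FPKM to 0.3005, 0.188 and 0.267 FPKM (change of log2 −2.61, SE 0.27, adjusted p = 8.81e-07). Hspa1l, the testis member of the Hsp70 family, kept 1.74, 1.32 and 1.53 FPKM after bilateral OD against 1.22, 1.897 and 1.59 FPKM in sham (change of log2 −0.02, SE 0.19, adjusted p = 0.923), and 1.28, 1.57 and 1.696 FPKM against 1.13, 1.37 and 1.19 FPKM between sides. In Nell2-/- it rose from 2.36, 1.42 and 1.84 FPKM to 2.704, 2.83 and 2.82 FPKM (change of log2 0.58, SE 0.19, adjusted p = 0.0233). Its close relatives in the same gene cluster make shared reads uncertain. Spata18, a mitochondrial quality protein, stood at 1.18, 1.67 and 1.35 FPKM in sham and 1.603, 2.84 and 1.899 FPKM after bilateral OD, and at 1.78, 1.54 and 0.596 FPKM and 0.526, 0.486 and 1.09 FPKM on the sides. Its bilateral change was higher than the unilateral one (log2 1.30 ± 0.46, adjusted p = 0.0346), although neither passed alone, and this call was lost on leaving out any of 7 libraries (sham 1 and 3, bilateral OD 2, contralateral 1 and 2, ipsilateral 1 and 2, by replicate number), with adjusted p from 0.0605 to 0.0981.

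Of the 35 members, 10 overlap another annotated gene on GRCm38, both among those that fell and among those that did not. Smcp, Gapdhs, Oaz3 and Gsg1, which fell in both OD comparisons, overlap a predicted gene, Sbsn, Tdrkh and an unnamed locus. Tssk3 overlaps Fam229a, Tssk6 overlaps Ndufa13, a subunit of the respiratory chain, and Catsper2 overlaps Pdia3, a protein of the endoplasmic reticulum. Zpbp overlaps Spata48 and 3 predicted genes, Zp3r 2 predicted genes and Spata18 1. The library kit keeps strand, but how strand was used when FPKM were computed is not given in the sources used here. The part of such overlaps in the values was not tested.

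Whether the unilateral OD change differed from the Nell2-/- change was tested directly, since at least 1 testis stays in both and Rnase10 is nearly lost in both. It was lower for 16 of the 34 members, beside 2.27% of all genes, and higher for 0 (2.38% of all genes), and 0 were higher at unadjusted p under 0.05. The 16 were the 4 chromatin genes, 6 of the tail group (Smcp, Odf1, Akap4, Spem1, Cabs1 and Fscn3), the 3 glycolytic genes, Tssk3, Oaz3 and Gsg1. The largest difference was that of Odf1 (log2 −6.88 ± 0.39, adjusted p = 1.76e-08), followed by Smcp (−5.53 ± 0.48, adjusted p = 5.74e-06) and Prm1 (−4.74 ± 0.44, adjusted p = 1.2e-05). For these the ipsilateral libraries were lower than every contralateral one, and the Nell2-/- libraries overlapped WT at a high level or lay above it. The bilateral change was lower than the Nell2-/- change for 21 members, beside 22.7% of all genes, and higher for 0 (0 also at unadjusted p under 0.05). With 0.01 FPKM added before logs, the differences between the unilateral and Nell2-/- changes were no longer called for Prm2 (adjusted p = 0.136), Tnp1 (0.0697) and Tnp2 (0.162), which include libraries listed at 0 or near it. Fscn3 lost that call on leaving out any of 10 of the 12 libraries, all but contralateral replicate 2 and WT replicate 3 (adjusted p from 0.069 to 0.121), Tnp2 without Nell2-/- replicate 3 (0.0505), and Tssk2 lost its difference between the bilateral and Nell2-/- changes without bilateral OD replicate 2 or WT replicate 3 (0.0587 each). A total of 15 members fell in both OD comparisons and had both of these differences, beside 0.959% of all genes tested. Other testis products are lost with the testis too, and sperm, germ cell fragments and their stored RNA cannot be told apart here.

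In Nell2-/- itself 3 members rose. Akap4 reached 172% of its WT mean, Hspa1l 149% and Tssk3 236%. In each the 3 Nell2-/- values lay above the 3 WT values, which largely follows from the call. Of the 31 members not called, 4 also had ranges apart, all higher (Catsper2, Gapdhs, Ldhc and Spem1). Among all genes, called or not, 24.8% were higher and 24% lower with ranges apart. Each call was lost on leaving out some library: Akap4 with any of 5, all but WT replicate 1, Hspa1l with any of 4, WT and Nell2-/- replicates 2 and 3, and Tssk3 with WT replicate 3 or Nell2-/- replicate 1. Leaving out WT replicate 3 left 0 members called and leaving out WT replicate 1 left 3. Of the 34 changes 30 were above 0 and 4 below. All come from the same libraries, so these signs are not independent, and the share of all genes above 0 was not computed. The share of members called higher was 8.82%, beside 17.8% of all genes.

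The contralateral epididymis was compared with sham to see whether removal of 1 testis reached the other side. By limma 0 members fell and 0 rose, beside 5.99% and 6.65% of all genes. At unadjusted p under 0.05 there were 1 lower, Tssk1, and 1 higher, Smcp, and by the study's own rule of at least 10-fold change there were 0. The median change was log2 −0.06, beside −0.03 for all genes. Smcp was higher in each contralateral than in each sham library (9.79 to 19.3 against 6.94 to 8.21 FPKM, change of log2 0.73, SE 0.34, adjusted p = 0.183). Contralateral replicate 2 had the highest Smcp and the lowest Tnp1 of its group, with a ratio of 4.68 between them, against 0.603 to 1.05 in the other contralateral and the sham libraries. The ratio was 2.396 to 5.79 in WT and Nell2-/- libraries. Without contralateral replicate 1, which had the highest Tssk1 of its group, Tssk1 was called lower than in sham (adjusted p = 0.00915) and higher on the ipsilateral side (0.00737). Leaving out contralateral replicate 2 left 18 members lower on the ipsilateral side and 16 in the test against Nell2-/-.

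**Figure D4:**
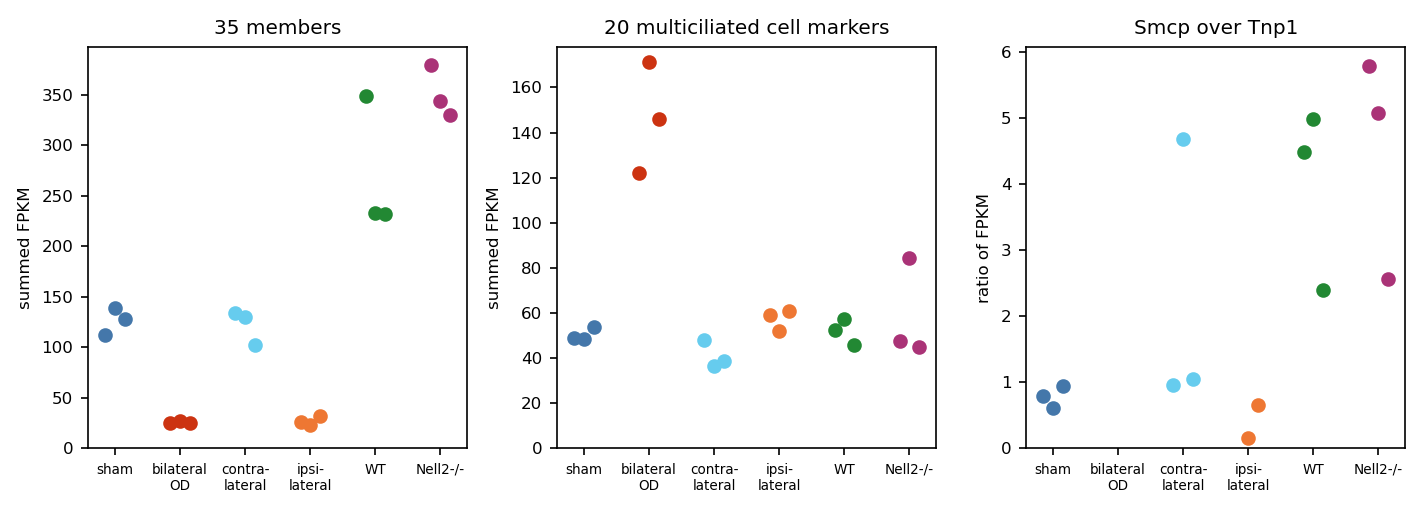
Summed FPKM of the 35 members (left), summed FPKM of 20 markers of multiciliated cells (middle) and the ratio of Smcp to Tnp1 in FPKM (right) in each library, 3 a group. The members are lowest in the bilateral OD and ipsilateral libraries (23.5 to 31.9), the multiciliated markers are highest after bilateral OD (122 to 171), and the ratio is missing where Tnp1 is listed at 0.

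Another 60 late germ cell genes were looked at to see how far the pattern reached, of which 52 were tested. After bilateral OD 22 of them fell and 13 rose, on the ipsilateral side 16 fell and 2 rose, and in Nell2-/- 1 fell and 9 rose. These are 42.3% and 25.0%, 30.8% and 3.85%, and 1.92% and 17.3% of the 52, beside 31.4% and 30.4%, 18.6% and 16%, and 18.6% and 17.8% of all genes. The 4 most abundant were Dkkl1, Spata3, Spa17 and Spata6, and none of these fell in both OD comparisons without also falling in Nell2-/-. Dkkl1, an acrosomal protein related to Dickkopf, stood at 59.6, 69.7 and 85.7 FPKM in sham, 5.79, 5.86 and 6.03 FPKM after bilateral OD, 53.5, 57.9 and 60.7 FPKM contralaterally and 1.86, 2.87 and 3.005 FPKM ipsilaterally. It also fell in Nell2-/-, from 24.2, 25.1 and 20.9 FPKM to 2.597, 1.51 and 0.931 FPKM (change of log2 −3.83, SE 0.26, adjusted p = 1.34e-08), the 1 fall of the list there. Spata3 fell after bilateral OD, to 2.33, 1.45 and 1.74 FPKM from 27.9, 30.6 and 24.8 FPKM, and overlapped between the sides (change of log2 −0.02, SE 0.13, adjusted p = 0.947). Spa17, a sperm surface protein that also occurs in ciliated cells, and Spata6, of the head-tail junction, both rose after bilateral OD (log2 0.50 ± 0.14, adjusted p = 0.00647, and 0.54 ± 0.09, adjusted p = 4.08e-05) and in Nell2-/- (adjusted p = 0.0491 and 1.86e-05).

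Further genes are given here that were singled out after their values were seen, in both directions. Spata19, of sperm mitochondria, and H1fnt, a histone variant of spermatids, were listed at 0 in all 6 bilateral OD and ipsilateral libraries, with 0.351 to 1.06 FPKM and 0.143 to 1.04 FPKM in the sham and contralateral ones. Tcp11, a testis protein, fell to 0.496, 0.75 and 0.384 FPKM on the ipsilateral side from 2.42, 1.96 and 2.14 FPKM (change of log2 −1.86, SE 0.26, adjusted p = 2.37e-05). Spo11, the meiotic nuclease and a member of the spermatocyte list, fell in both OD comparisons (adjusted p = 0.00014 and 0.000724) and also in Nell2-/-, from 2.86, 2.498 and 3.05 FPKM to 0.281, 0.117 and 0.302 FPKM (change of log2 −3.17, SE 0.40, adjusted p = 6.67e-06). The tektin genes Tekt1, Tekt2 and Tekt4, whose products line the microtubules of sperm tails and of cilia, rose after bilateral OD, by log2 2.03, 1.85 and 1.80 (adjusted p = 0.00047, 0.00148 and 2.06e-05).

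Markers of multiciliated cells, which line the efferent ducts next to the initial segment, moved the other way after bilateral OD. Of 20 markers 19 rose and 0 fell, beside 30.4% and 31.4% of all genes. The exception was Mcidas (0.878, 0.678 and 0.816 against 0.627, 0.836 and 1.06 FPKM). Their summed level went from 48.98, 48.5 and 53.6 to 122, 171 and 146 FPKM. On the ipsilateral side 6 rose and 0 fell, beside 16% and 18.6% of all genes. The sums there were 59.2, 52.2 and 60.8 against 47.8, 36.4 and 38.9 FPKM. In Nell2-/- 1 rose and 0 fell, beside 17.8% and 18.6% of all genes. None of the 20 was at 0. Of the members, Catsper4 and Tssk6 rose beside these markers, while Odf2, which cilia also use, fell. The markers' part in these values was not tested.

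Markers of earlier germ cells went in several directions. Of the 16 spermatocyte markers that were found, 10 averaged under 0.1 FPKM. Of the 9 tested, 3 fell and 1 rose after bilateral OD, 3 fell and 0 rose on the ipsilateral side, and 1 fell and 2 rose in Nell2-/-, beside the shares of all genes given above (31.4% and 30.4%, 18.6% and 16%, 18.6% and 17.8%). The meiotic entry gene Stra8 was listed at 0 in 17 of the 18 libraries, and Mael, a piRNA pathway protein, fell to 0 in every bilateral OD library from 0.937, 0.893 and 0.525 FPKM. The same shares of all genes apply to the counts of the lists that follow. Of the 11 genes of spermatogonia and all germ cells, 8 were tested. After bilateral OD 4 fell and 1 rose, on the ipsilateral side 1 fell and 3 rose, and in Nell2-/- 1 fell and 3 rose. Their summed level was 139 to 179 FPKM in sham, 62.9 to 73.4 FPKM after bilateral OD, 168 to 171 FPKM contralaterally and 237 to 258 FPKM ipsilaterally. In WT it was 141 to 153 FPKM and in Nell2-/- 202 to 227 FPKM. The sum was thus higher on the ipsilateral side and in Nell2-/-, whereas the members' sum was lower on the ipsilateral side. Most of it was Gfra1, a receptor for GDNF that cells outside the germ line also make, at 143, 143 and 135 FPKM contralaterally and 241, 236 and 219 FPKM ipsilaterally (change of log2 0.72, SE 0.09, adjusted p = 3.56e-06). Uchl1, a deubiquitinase known also from neurons, fell in all 3 comparisons (adjusted p = 9.26e-12, 2.19e-07 and 0.00019), and Nanos3, an RNA-binding protein of germ cells, rose in all 3 (adjusted p = 0.000403, 0.0421 and 0.00373). The germ cell helicase Ddx4 fell after bilateral OD, from 0.175, 0.259 and 0.152 FPKM to 0, 0 and 0.07596 FPKM (adjusted p = 0.00279), and Sohlh2 was listed at 0 throughout. Of the 13 Sertoli and Leydig cell genes, Hsd17b3, the testosterone-making enzyme of Leydig cells, was listed at 0 in every library, and Insl3 overlapped between groups at 0 to 2.16 FPKM. Of the 11 tested, 5 fell and 1 rose after bilateral OD, 3 fell and 0 rose on the ipsilateral side, and 1 fell and 3 rose in Nell2-/-. The summed level of this list was 30.96 to 38.5 FPKM with a testis and 18.6 to 25.99 FPKM without one, most of it Sox9, which the duct epithelium also expresses. Macrophage markers, which would mark cells that take up sperm, rose in 7 of 11 tested after bilateral OD and 0 fell, 0 rose and 0 fell on the ipsilateral side, and 1 rose and 3 fell in Nell2-/-. Their sums were 173 to 197, 208 to 239, 152 to 185 and 177 to 198 FPKM in sham, bilateral OD, contralateral and ipsilateral libraries. The part of these cells in the members' changes was not tested.

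The members' patterns over the 18 libraries were set beside the mean log2(FPKM + 0.1) of the 4 chromatin genes, as a description. The libraries of a group share operation and genotype, so the 18 points are not independent. Ldhc (Pearson's r = 0.98), Smcp (0.97), Odf1 (0.97) and Gsg1 (0.96) were closest, and Tssk6 (0.08), Tssk1 (−0.02) and Catsper4 (−0.59) were farthest. Among 13829 other genes that averaged at least 0.5 FPKM in the control groups, the 10 most alike were Hsp90ab1 (0.97), Hsd17b7 (0.97), Crisp2 (0.97), Hrasls5 (0.97), Vat1 (0.97), Spata4 (0.96), Cmtm2a (0.96), 2610318N02Rik (0.96), Tmem181a (0.96) and 1700012A03Rik (0.96). Likeness here is of shape and not of size. Crisp2, a sperm protein of the acrosome and tail, went from 1.63, 2.13 and 1.61 FPKM in sham to 0, 0.0432 and 0 FPKM after bilateral OD and from 2.35, 2.12 and 2.68 FPKM to 0.0613, 0 and 0.158 FPKM on the ipsilateral side, whereas the chaperone gene Hsp90ab1 moved only between 555 and 873 FPKM over all libraries.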

How the data were processed

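FPKM for 24346 genes in 18 libraries were deposited by the authors and used as given. The submitters' processing notes name TopHat2 2.1.1, Cufflinks 2.2.1 and mm10, and the libraries were stranded and sequenced to 101 bp from one end. Depth is not stated. The value of 1 read was estimated from low FPKM of 3076 genes with 1 transcript of at least 1000 bases. Log2(FPKM + 0.1) was fitted with limma 3.58.1 (R 4.3.3, eBayes with trend and robust) as 6 group means, with 12 residual degrees of freedom and Benjamini-Hochberg adjustment over 17302 genes. Differences between comparisons were contrasts of the same fit. With 3 libraries a group, p-values rest on the spread between libraries within groups, pooled over the 6 groups and moderated across genes by eBayes. A group listed at 0 in all 3 libraries, such as bilateral OD for Prm1, adds no spread to this pool. For such members the SE and p-values can therefore be too small, in every comparison. The 2 sides of unilateral OD came from the same mice but were fitted as independent libraries. Fold changes are on the log2(FPKM + 0.1) scale. Alternatives were 1 or 0.01 FPKM added, no filter, a stricter filter (1 FPKM in 3 libraries), scaling by median ratios, a fit to only the libraries compared, the rule of the study (10-fold and unadjusted p), the replicate number as a block and each library left out. All 35 members are named, and of other lists at most 4 genes by mean FPKM plus those said to be singled out or used as defining markers. Members and lists were chosen with earlier results of these data known. The comparison of WT with sham was added after values were seen. Positions and promoter sequences are from RefSeq GRCm38.p6, matched by gene ID and symbol. Library labels and methods differ on the maker of the RNA kit.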

Additional observations from a re-analysis of the deposited data

Results flagged for a closer look

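Members are given here because their change differed between 2 comparisons by a test of the difference itself (limma contrast, adjusted p under 0.05 over all genes). All values are differences of log2 changes, and a negative value means that the first change was lower.

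The unilateral OD change was lower than the Nell2-/- change, in ascending order of the difference, for Odf1 (−6.88), Smcp (−5.53), Prm1 (−4.74), Tnp1 (−4.54), Oaz3 (−4.29), Ldhc (−4.24), Tnp2 (−4.16), Prm2 (−4.08), Pgk2 (−3.75), Cabs1 (−3.59), Akap4 (−3.56), Tssk3 (−3.32), Gapdhs (−3.25), Gsg1 (−3.04), Spem1 (−2.58) and Fscn3 (−2.21).

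The bilateral OD change differed from the unilateral OD change for Prm2 (−3.59), Prm1 (−3.52), Tnp1 (−2.31), Catsper3 (−1.94), Catsper2 (−0.82), Spata18 (1.30) and Tssk3 (1.66).

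The bilateral OD change was lower than the Nell2-/- change for Prm1 (−8.27), Prm2 (−7.68), Odf1 (−7.33), Tnp1 (−6.85), Smcp (−6.63), Tnp2 (−6.07), Ldhc (−4.95), Oaz3 (−4.09), Pgk2 (−3.85), Gsg1 (−3.79), Gapdhs (−3.57), Akap4 (−3.51), Cabs1 (−3.35), Spem1 (−2.82), Fscn3 (−2.23), Catsper3 (−2.18), Tssk2 (−1.88), Akap3 (−1.77), Tssk3 (−1.66), Catsper2 (−1.04) and Odf2 (−0.51).

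Sham and bilateral OD libraries enter one of these changes, contralateral and ipsilateral libraries another, and WT and Nell2-/- libraries the third, so the lists share libraries and are not independent of each other. The WT and Nell2-/- males were also 14 weeks old and not operated on, whereas the others were 12 weeks old and operated on. Groups of 3 libraries are too small for a test of single outlying libraries.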

How the results depend on the processing

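Adding 0.01 FPKM, scaling by median ratios and using no filter left every count of members called within 1.5 times its value in all 7 comparisons. By the rule of the study, 9 members were lower and 1 higher after bilateral OD, 7 were lower on the ipsilateral side and 0 were higher in Nell2-/-. Akap4, Cabs1, Fscn3, Ldhc and Pgk2 were not called after bilateral OD by this rule, although every bilateral OD library listed them at 0. A filter of 1 FPKM in 3 libraries, which left 21 members tested, gave 1 higher after bilateral OD. The 3 rises in Nell2-/- became 5 with 1 FPKM added and 6 with only the libraries compared. The bilateral change differed from the unilateral one for 3 members lower and 1 higher with 1 FPKM added, and for 3 lower and 1 higher with only the libraries compared, against 5 and 2.

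Leaving out each library in turn gave 20 to 22 members lower and 1 to 2 higher after bilateral OD, 17 to 20 lower and 0 to 1 higher on the ipsilateral side, 0 lower and 0 to 3 higher in Nell2-/-, and 0 to 1 lower and 0 higher on the contralateral side against sham. It gave 14 to 17 lower and 0 higher for the unilateral against the Nell2-/- change, 2 to 5 lower and 1 to 2 higher for the bilateral against the unilateral change, and 20 to 22 lower and 0 higher for the bilateral against the Nell2-/- change. No call of a member changed direction under any alternative.

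Samples with the same replicate number did not deviate together in every pair: their correlations were −0.06 to 0.06 between the sides of unilateral OD, −0.10 to −0.06 between sham and bilateral OD, and 0.08 to 0.11 between WT and Nell2-/-. The numbers were therefore not taken as pairs. The replicate block lost the call for Fscn3 in the unilateral against the Nell2-/- change (adjusted p = 0.069) and for Tnp1 in the bilateral against the unilateral change (0.0575), and gained Tssk2 in the former (0.0399). With it, 21 members were lower and 2 higher after bilateral OD, 18 lower and 0 higher on the ipsilateral side, 3 higher in Nell2-/-, 16 lower for the unilateral against the Nell2-/- change, 21 lower for the bilateral against the Nell2-/- change, and 4 lower and 2 higher for the bilateral against the unilateral change.

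Without Prm2, the member of largest mean, the mean summed FPKM went from 126.4 to 102.9 in sham and from 122 to 101.3 contralaterally. It went from 351.2 to 264.2 in Nell2-/- and from 271.4 to 204.8 in WT. The WT move was less than 1 SD only because the WT libraries spread widely (SD 67.3). After bilateral OD and on the ipsilateral side the mean also moved by less than 1 SD. FPKM give no counts, so members near the value of 1 read, such as Acr, Acrv1, Zp3r, Fscn3 and Catsper4, carry the least certain values.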

Other observations

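The untreated WT males carried more of some members than the sham-operated males, a comparison added after the values were seen. By limma 11 of the 34 tested members were higher and 0 lower in WT than in sham libraries (0 also at unadjusted p under 0.05), beside 12.7% and 14.6% of all genes. The higher ones were 5 of the tail group (Smcp, Odf1, Akap4, Spem1 and Cabs1), the glycolytic genes Gapdhs and Pgk2, Tssk6, Oaz3, Gsg1 and Spata18. Smcp stood at 44.3 ± 17.6 FPKM in WT and 7.59 ± 0.633 FPKM in sham (SD, n = 3, change of log2 2.46, SE 0.34, adjusted p = 0.000117). Oaz3 stood at 22.1 ± 7.53 FPKM and 5.702 ± 1.298 FPKM (limma adjusted p = 0.000803). The transition proteins did not pass the test, at 11.4 ± 2.84 and 10.1 ± 2.21 FPKM for Tnp1 and 13.2 ± 2.51 and 8.59 ± 1.13 FPKM for Tnp2 (limma adjusted p = 0.874 and 0.538). Prm1 and Prm2 did not pass it either, and Prm1 overlapped. Prm2 had ranges apart, at 51.4 to 87.3 FPKM in WT and 22.2 to 25.9 FPKM in sham, and was higher at unadjusted p under 0.05. It was called with 1 FPKM added before logs (limma adjusted p = 0.00156) and with only the libraries compared (0.00329). In the latter fit Tnp2, also with ranges apart, was called too (0.0144). By the rule of the study 0 were higher. Without 1 of the 6 libraries, 7 (without WT replicate 1) to 13 members were higher. Age, operation and series of libraries cannot be told apart here.

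Prm2 exceeded Prm1 by a ratio of 1.78 to 2.48 in the 6 WT and Nell2-/- libraries and 0.9498 to 1.297 in the 3 sham libraries, with contralateral libraries at 1.02, 1.87 and 1.49.

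Of the 31 members with a RefSeq promoter, TGANNTCA was within 100 bases in 7 of the 15 that fell in both OD comparisons and in 6 of the other 16, which include Tssk1, Hspa1l and Catsper4.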
